A study of Mus musculus with 3 samples.

Results

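Accessible chromatin at 44 DNA replication genes was measured in long-term hematopoietic stem cells (LT-HSCs) of aged mice. The genes were taken from a list by symbol, and all 44 were found among the 21938 protein-coding genes of the annotation. The cells were c-Kit enriched and sorted from bone marrow of wild-type C57BL/6J females at 24 months of age. DOGMA-seq was used, in which each cell gives open chromatin (ATAC), RNA and counts of 12 antibodies. The sources do not state how many mice were pooled, and the single pool gave 3 libraries, 1 for each kind of molecule. There were therefore no replicates and no test was run. Intervals in brackets are exact 95% intervals that cover counting error only, and cells of 1 pool are not replicates of a condition.

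DNA replication begins with licensing, in which the origin recognition complex, Cdc6 and Cdt1 load the MCM helicase onto origins. At S phase entry, driven by cyclin E and E2F factors, Cdc45 and the GINS complex turn the loaded helicase into an active fork, and polymerases, the sliding clamp and its loader copy the strands. LT-HSCs are known for dividing rarely, and many of these genes are E2F targets that are transcribed when a cell leaves quiescence. An open promoter is not transcription, and the RNA of single genes was not analysed here.

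The ATAC library held 43705382 fragments. The antibody table listed 3724 barcodes, all of which were called as cells jointly from ATAC and RNA, and 3629 with at least 10 antibody tags were kept. The median kept cell held 10300 ATAC fragments, 1978 UMIs of RNA and 29 tags, and all kept cells together held 38498362 nuclear fragments. Levels are fragments per 1000000 of these nuclear fragments (FPM). The promoter was the annotated gene start with 1 kb on each side, and the gene body was the gene with 2 kb upstream. Stem cell marker promoters (among them Mecom, Hlf, Meis1, Procr, Slamf1, Kit, Fgd5, Hoxb5 and Tek) ranged from 0.494 FPM at Mecom to 43.7 at Kit. The Mecom value is that of its annotated gene start only, at the 25.6th percentile of all genes, while its gene body lay at the 48.7th. The median of the marker promoters was 10.7 for these stem cell genes and 13.4 for megakaryocyte genes. It was 7.25 for erythroid, 2.21 for myeloid, 1.25 for B cell and 0.545 for T cell genes.

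Promoter sequences from RefSeq (GRCm38.p6, 250 bases before to 50 after the start) were matched for 36 of the 44 genes. Mcm4, Rfc2, Gins1, Gins2, Gins4, Pole, Ccne2 and Tipin were not matched. An E2F site, searched on both strands as TTTCCCGC, TTTGGCGC or TTTGCCGC, lay in 10 of the 36 genes (27.8%) and in 1.99% of all 32851 promoter windows. The genes were Mcm3, Mcm5, Mcm6, Mcm7, Cdc6, Cdt1, Gins3, Pola1, Pold1 and Rfc3. A CCAAT box (CCAAT) was in 22 of 36 (61.1%) against 37.4% of all windows. The CHR element (TTTGAA), which is common in mitotic promoters, was in 4 of 36 (11.1%) against 17.9%. Genes were counted by a match in any of their windows, 41 for the 36 genes, while the shares of all promoters are per window. No match overlapped another motif. The windows of these genes had a median GC content of 61.3%, against 52.7% for all windows.

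The stretches below lie before the RefSeq start, from which positions are counted, and outside exons of GENCODE M21. That of Cdc6 lies in an intron after the GENCODE start at 98907801. They show 4 promoters with E2F matches, Mcm2 as a helicase gene without one, and Prim1 as the least open promoter whose level did not depend on the start used. Capitals mark E2F and CCAAT matches on either strand. Mcm6 carried E2F letters at 110 and 47 bases before its start, each on the strand of the gene. Mcm5 carried them at 149 bases, Cdc6 at 138 bases and Pola1 at 138 bases before the start, each on the other strand.
Mcm2, chr6:88898781-88898960, minus strand: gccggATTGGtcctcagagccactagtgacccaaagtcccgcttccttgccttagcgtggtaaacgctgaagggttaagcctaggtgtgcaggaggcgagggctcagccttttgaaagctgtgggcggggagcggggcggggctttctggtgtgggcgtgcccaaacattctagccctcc
Mcm5, chr8:75109329-75109508, plus strand: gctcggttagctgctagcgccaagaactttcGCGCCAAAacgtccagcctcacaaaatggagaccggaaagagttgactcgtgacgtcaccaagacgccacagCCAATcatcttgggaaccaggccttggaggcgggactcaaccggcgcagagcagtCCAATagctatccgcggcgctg
Mcm6, chr1:128359706-128359885, minus strand: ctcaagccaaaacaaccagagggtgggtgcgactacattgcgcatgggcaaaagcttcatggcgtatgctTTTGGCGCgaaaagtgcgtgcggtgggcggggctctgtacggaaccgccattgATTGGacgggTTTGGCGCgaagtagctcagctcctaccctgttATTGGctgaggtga
Cdc6, chr11:98907982-98908150, plus strand: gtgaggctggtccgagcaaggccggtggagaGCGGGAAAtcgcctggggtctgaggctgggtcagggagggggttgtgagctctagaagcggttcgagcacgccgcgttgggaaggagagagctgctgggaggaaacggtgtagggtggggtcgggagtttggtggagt
Pola1, chrX:93632156-93632335, minus strand: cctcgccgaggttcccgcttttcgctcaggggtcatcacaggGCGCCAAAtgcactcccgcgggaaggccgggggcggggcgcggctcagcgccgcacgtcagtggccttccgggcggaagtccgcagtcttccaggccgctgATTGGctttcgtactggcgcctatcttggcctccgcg
Prim1, chr10:128014988-128015167, plus strand: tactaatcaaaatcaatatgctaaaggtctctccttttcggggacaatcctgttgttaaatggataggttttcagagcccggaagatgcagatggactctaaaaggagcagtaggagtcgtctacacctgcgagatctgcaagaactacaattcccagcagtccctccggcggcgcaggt

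Promoters of the replication genes were open in these aged stem cells. Their median level was 34.4 FPM, against 9.92 over all protein-coding genes. Of the 44 promoters, 39 lay above the all-gene median and 10 above the 90th percentile. Levels ranged from 2.52 at Lig1 to 81.7 at Gins2, and the sum over the genes was 1535 FPM (1523 to 1548). The share of cells with at least 1 promoter fragment ran from 2.51% to 55.9%, with a median of 28.9%. Genes of other lists had similar medians, namely 33.7 for 57 further replication genes, 34.1 for 33 mitosis genes and 35.9 for 79 ribosomal protein genes, so the level was not particular to replication.

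Origin licensing genes had a median of 40.8 FPM, and all 9 lay above the all-gene median. Orc1, a subunit of the origin recognition complex, had 50.1 (47.9 to 52.4). The helicase loaders Cdc6 and Cdt1 had 33.5 (31.7 to 35.4) and 40.8 (38.8 to 42.9). The MCM helicase subunits, which act in equal numbers in the complex, differed at their promoters. At the gene start Mcm4 was highest with 57.8 (55.4 to 60.2), and Mcm3 was lowest with 25.5 (23.9 to 27.1). Mcm7 had 48.3 there and 72.8 at an annotated start 607 bp away, above Mcm4. Of the others, Mcm5 had 41.6, Mcm2 32.8 and Mcm6 32.2, and the intervals of Mcm2 and Mcm6 overlapped.

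Among the genes of helicase activation, the GINS complex held both ends of the range. Gins2 had 81.7 FPM (78.9 to 84.7), at the 98.4th percentile of all genes and with a fragment in 55.9% of cells. Gins3, its partner in the same complex, had 14.1 (12.9 to 15.3), and Gins1 and Gins4 had 33.3 and 37.2. Cdc45, which binds GINS and MCM at the fork, had 49.3 (47.1 to 51.6). Mcm10, which aids origin firing, had 19.6 (18.2 to 21.0), and Tipin, a fork protection factor, had 29.8 (28.1 to 31.6).

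Polymerase and primase genes were the least open role group, with a median of 17.7. Pold1 and Pole, the catalytic subunits of polymerases delta and epsilon, had 50.8 (48.6 to 53.1) and 38.7 (36.7 to 40.7). Of the polymerase alpha complex, which lays down primers, the genes in this role group were all lower. Pola2 had 17.7 (16.4 to 19.0), the X-linked Pola1 had 11.8 (10.7 to 12.9) and the primase gene Prim1 had 4.62 (3.97 to 5.35). Prim1 was below the all-gene median at every annotated start.

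Pcna, the sliding clamp, had 68.2 FPM (65.6 to 70.9), well above the genes of its loader. Rfc4 had 28.7, Rfc5 28.5, Rfc3 24.8 and Rfc1 18.2, with overlapping intervals for Rfc4 and Rfc5. Rfc2 had 4.16 at its annotated gene start but 26.9 at another annotated start 1324 bp away, so its low value rests on the start used.

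The subunits of the single-strand binding protein RPA had Rpa3 at 45.7, Rpa2 at 39.1 and Rpa1 at 35.4. Fen1, the flap endonuclease of Okazaki fragments, had 41.0 (39.0 to 43.0). Lig1, the ligase that joins these fragments, had 2.52 (2.04 to 3.07) at its gene start and 26.3 at an annotated start 1543 bp away.

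Nucleotide supply genes were split. Dut, the dUTPase, had 66.7 (64.1 to 69.3), and the ribonucleotide reductase genes Rrm2 and Rrm1 had 33.4 and 27.8. The thymidine genes were low. Tk1, the salvage kinase, had 8.99 (8.07 to 9.99), or 14.2 at a start 275 bp away. Tyms, thymidylate synthase, had 5.71 (4.98 to 6.52), and 5.79 at its most open start.

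Genes of chromatin and histone supply had a median of 43.2. Slbp, which binds histone mRNA, had 50.7, and Chaf1b, a subunit of the assembly factor CAF-1, had 49.8. Uhrf1, which recruits DNA methylation to new strands, had 36.6, and the CAF-1 gene Chaf1a was lowest with 23.4. The genes of S phase entry had the highest median of any role group, 48.2. Ccne1 had 58.4 (56.0 to 60.8), E2f1 had 48.2 (46.0 to 50.5) and Ccne2 had 38.0.

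**Figure D1:**
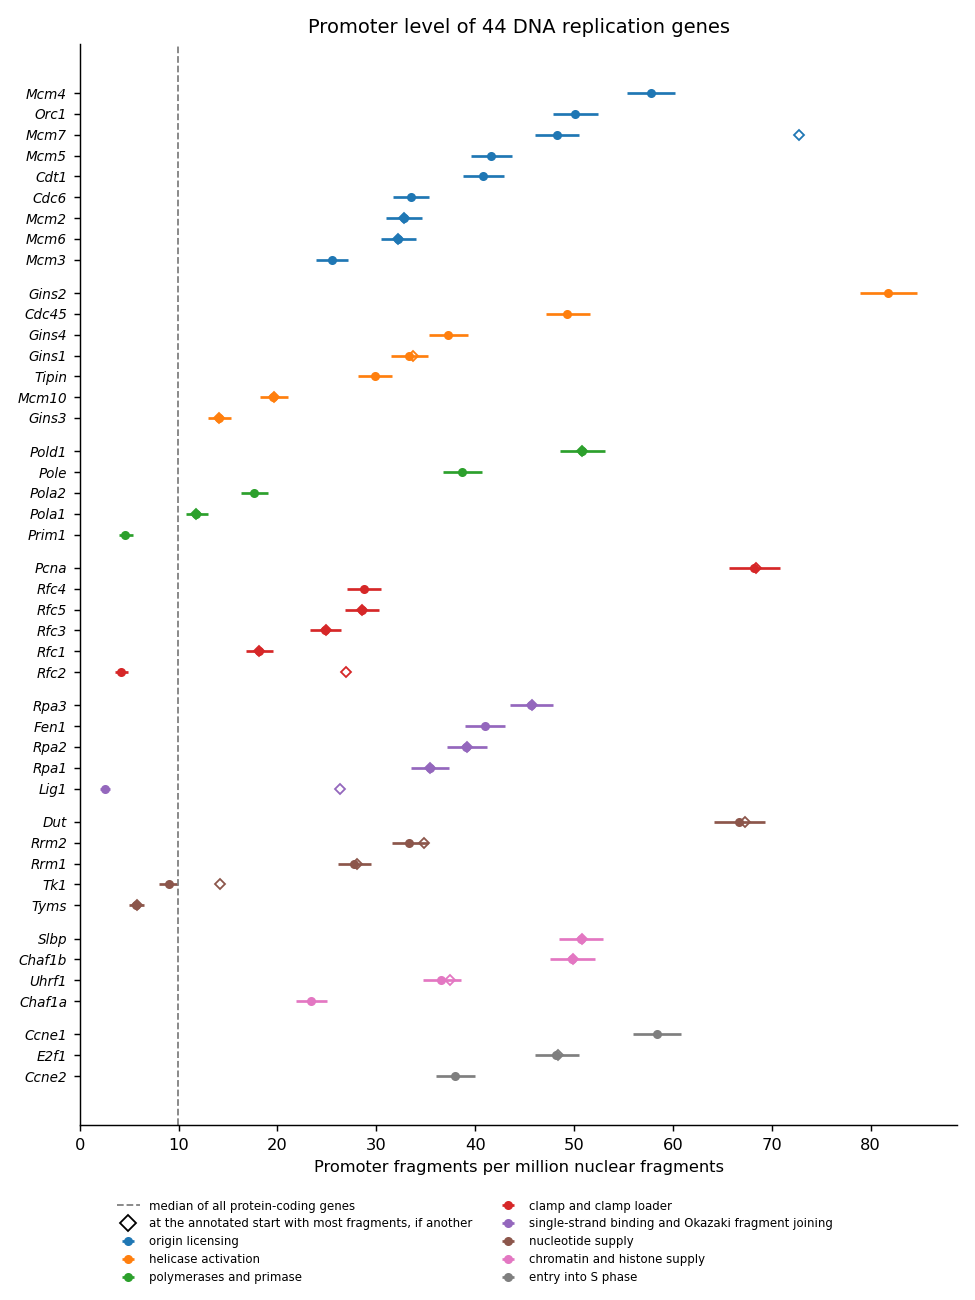
Promoter level of each gene, in FPM, by role group (colours), with 95% counting intervals as bars and open diamonds for the most open annotated start where it is another start. Most genes lie right of the dashed all-gene median of 9.92, and Lig1, Rfc2 and Tk1 cross it only at their other start.

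Of the 44 genes, 10 (22.7%) had the start of another protein-coding gene on the opposite strand within 1 kb, against 10.9% of all protein-coding genes. Fragments there cannot be assigned to either gene. The pairs were Cdc45 with Ufd1, Fen1 with Tmem258, Gins1 with Abhd12, Mcm4 with Prkdc, Mcm7 with Ap4m1, Orc1 with Prpf38a, Pole with Pxmp2, Rpa1 with Smyd4, Rpa3 with Umad1 and Tk1 with Afmid. A further 5 genes, Gins2, Pcna, Rfc4, Rfc5 and Slbp, had such a neighbour of another gene type only. At Gins1 only 63 insertions lay in the 500 bp around its own start, although its promoter window held 1283 fragments and the start of Abhd12 lies 659 bp away.

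Around the gene start the insertions of the replication genes peaked in the last 50 bp before the start, at 7.70 insertions per gene and 1000000 nuclear fragments. This was close to the ribosomal protein genes at 7.37 and below the mitosis genes at 9.03, while all protein-coding genes reached 3.22. The replication genes had 56.4% of their insertions upstream of the start, against 66.8% for mitosis genes and 49.8% for ribosomal protein genes. Fragments too short to span the DNA of a nucleosome made up 70.8% of the promoter fragments of Gins2, 65.1% of Gins4, and 63.1% each of Dut and Ccne1. They made up 3.09% at Lig1 and 10.6% at Rfc2, whose gene starts were far less open than another annotated start.

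**Figure D2:**
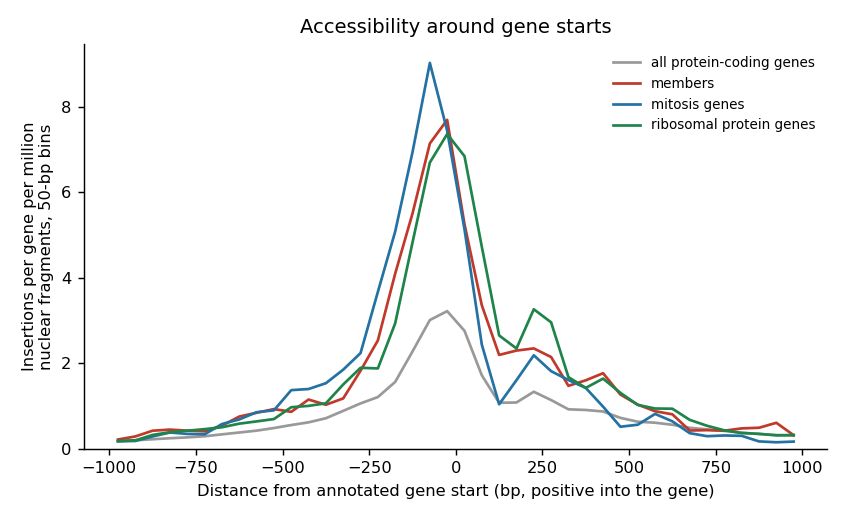
Insertions per gene and 1000000 nuclear fragments in 50-bp bins against distance from the annotated gene start, for the 44 replication genes (members), mitosis, ribosomal protein and all protein-coding genes. The replication genes peak at 7.70 just before the start, more than the 3.22 of all genes.

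Gene bodies, reported apart, gave a median of 2.28 FPM per kb, against 0.822 over all genes, and 40 of the 44 genes were above the all-gene median. Most of this signal was the promoter, since promoter fragments made up a median of 83.1% of the fragments over the body window, against 49.5% for all genes. The highest bodies were those of short genes, with 11.7 at Pcna, 8.80 at Rpa3 and 7.88 at Mcm7. The lowest were 0.129 at Pola1, whose window spans 329 kb, 0.397 at Prim1 and 0.422 at Tyms. The low promoters of Prim1 and Tyms were thus not made up for elsewhere in the gene.

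Some genes carried a strong window away from any annotated start. An intronic window of Rpa1 (mm10, chr11:75313766-75314265), 34308 bp from the gene start, held 1382 insertions, against 1927 in the 500 bp around its start. A window of Chaf1b (chr16:93891101-93891600, overlapping an exon) held 1083, against 2694 at the start. Rrm2 had 658 insertions in such a window, Cdc45 517, Cdc6 451, Rfc1 421 and Pola2, upstream of the gene, 413. At Lig1 an intronic window (chr7:13294283-13294782) held 286 insertions, more than the 21 around the annotated start. The median over the 44 genes was 72.0 insertions in the strongest such window.

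A cell had a median of 15 fragments over the replication promoters (2 to 71) and at least 1 fragment at a median of 12 of the 44 genes (2 to 32). With each cell thinned to 5000 nuclear fragments, which left out 90 shallower cells, the median was 7 genes (0 to 16). The variance of the summed promoter fragments over cells was 1.33 times that of counting error alone, given each cell's nuclear fragments. The same ratio was 1.31 for further replication genes, 1.25 for mitosis genes and 1.40 for ribosomal protein genes. With fragments over all promoters as the scale the ratio was 1.22 for the replication genes, and 1.12, 1.15 and 1.13 for the other lists. In thinned cells it was 1.10 for the replication genes, 1.14 for further replication genes, 1.12 for mitosis genes and 1.18 for ribosomal protein genes. The mean count per cell was 16.3, 21.6, 12.1 and 29.8 for these lists in that order, and 7.76 for the replication genes after thinning. An excess of this kind grows with the mean count, so the ratios are not on 1 scale across lists, and thinning lowers them by itself. With all promoters as the scale, the replication genes had the highest ratio, although further replication and ribosomal protein genes had higher means. Whether that ratio differs from those of the other lists was not tested.

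Whether the replication promoters varied with surface phenotype was asked by comparing cells high and low for each antibody. The groups were as near to the top and bottom 25% of cells as tied counts allowed, or cells with a tag against cells without where most had none. Values are log2 ratios of the level in high over low cells, and a gene was counted as past the fold at 1.2-fold with at least 100 fragments over both groups. In sums over cells, fewer open cells and fewer fragments per cell cannot be told apart. The intervals assume counting error alone, while the variance of the summed promoter fragments over cells was 1.33 times that. They are therefore too narrow for the spread of cells, and those that end near 0 should be read so. Genes with few fragments pass the fold more easily by counting error, and genes with many fragments have narrower intervals that leave out 0 more easily. Shares and medians of all genes in these comparisons are over protein-coding genes with at least 100 fragments over both groups. The replication promoters had a median of 34.4 FPM, against 9.92 over all 21938 genes, of which the sparsest were not in these shares. The median level of the genes tested was not computed. A lower share past the fold therefore does not show that the replication genes are stable. In the same way, a higher share of intervals without 0 does not show that they vary more. Differences of the summed promoters were small for all 12 antibodies, from -0.048 for CD274 to 0.045 for CD68.

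CD274 (PD-L1), which the study used to mark platelet-biased HSCs, showed the most negative difference. The 937 cells with 27 or more tags had 1524 FPM at the promoters of the replication genes, and the 877 cells with 12 or fewer had 1575. The log2 ratio was -0.048 (-0.080 to -0.015), while the median of all genes was 0.021. Over gene bodies it was -0.080 (-0.11 to -0.052). The mitosis genes had -0.060 (-0.098 to -0.022) at promoters, the further replication genes -0.027 (-0.055 to 0.0012) and the ribosomal protein genes 0.013 (-0.011 to 0.037). Intervals without 0 were found for 7 of 41 replication genes at promoters, against 10.4% of all genes, and for 11 of 44 over bodies, against 14.2%. Past the fold were 2 of 41 replication genes, against 14.1% of all genes. Both were lower in CD274-high cells, Tk1 with 7.16 against 12.1 FPM and a log2 ratio of -0.75 (-1.20 to -0.32), and Ccne2 with 33.7 against 42.6 and -0.34 (-0.55 to -0.13). Next lowest were Rfc5 with -0.25 and Dut with -0.23, and highest were Rfc4 with 0.23, Slbp with 0.21, Rfc3 with 0.19 and Cdt1 with 0.15. By role, the nucleotide supply genes had -0.21 (-0.32 to -0.11), and the intervals of the other groups included 0. An excess of overlapping fragments was found in 13.7% of CD274-high and 6.73% of CD274-low cells, and without these cells the promoter ratio was -0.037. Such cells were also more frequent among cells high for CD61 (13.9% against 5.64%), CD357 (12.2% against 5.08%) and CD27 (11.8% against 6.27%). Among the 363 cells with at least 50 tags the promoter ratio was 0.072, for which no interval was computed. The body ratio among these 363 cells was 0.054, and the cause of the changes of sign was not tested. CD274 gave 77229 of the 114345 tags. The median number of tags in all was 46 in CD274-high and 17 in CD274-low cells.

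CD61 (integrin beta 3), the other platelet-bias marker, gave a promoter ratio of -0.040 (-0.076 to -0.0044) between 779 and 727 cells, with an all-gene median of 0.0068. Past the fold were 2 of 40 genes, against 13.4% of all genes. Mcm10 with 0.34 (0.0034 to 0.68) and Pola2 with 0.30 (-0.038 to 0.65) were higher in CD61-high cells, followed by Mcm6 with 0.18 and Pole with 0.14. The lowest were Ccne2 with -0.24, Chaf1b with -0.23, Mcm3 with -0.21 and Gins4 with -0.20. Intervals without 0 were found for 3 of 40 genes at promoters, against 7.31% of all genes, and for 5 of 44 over bodies, against 8.88%. The summed promoter ratio kept its direction but shrank to -0.011 with the wider groups of cells, -0.015 with at least 50 tags and -0.023 with centred log ratios of the tags. The body ratio, -0.045 (-0.076 to -0.014), turned to 0.033 with at least 50 tags.

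CD27 and CD357 (GITR) were the study's markers of multi-lineage HSCs. CD27 gave -0.030 (-0.060 to 0.00023) between 825 and 1578 cells, with 2 of 43 genes past the fold against 9.15% of all genes. In cells with at least 50 tags the promoter ratio was 0.042. Pola2 with -0.39 (-0.70 to -0.10) and Gins3 with -0.28 (-0.62 to 0.050) were lowest, followed by Tyms with -0.25 and Ccne2 with -0.23. Highest were Rrm1 with 0.17, Pole with 0.15, Pola1 with 0.13 and Prim1 with 0.13. CD357 gave 0.030 (-0.00045 to 0.060) at promoters and 0.046 (0.020 to 0.071) over bodies, between 968 and 1200 cells. In cells with at least 50 tags these were 0.068 and 0.099. Past the fold was 1 of 41 genes, Gins3 with 0.31 (-0.010 to 0.62), against 9.40% of all genes. Cdc6 with 0.26, Ccne2 with 0.19 and Slbp with 0.17 followed, and Cdt1 with -0.17, Pold1 with -0.17, Uhrf1 with -0.15 and Rfc1 with -0.11 were lowest.

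The markers were also joined, after the data had been seen, by adding a cell's ranks for CD61 and CD274 and subtracting those for CD27 and CD357. Between the 908 highest and 908 lowest cells the promoter ratio was -0.032 (-0.065 to 0.00060) and the body ratio -0.061 (-0.089 to -0.033). Past the fold were 2 of 41 genes, against 13.0% of all genes, namely Tk1 with -0.47 (-0.94 to -0.013) and Gins1 with -0.34 (-0.57 to -0.10). Both windows are shared with another gene, Afmid at Tk1 and Abhd12 at Gins1, so these values cannot be assigned to either gene. Gins3 with -0.21 and Ccne2 with -0.21 came next, and Cdt1 with 0.25, Pola2 with 0.22, Gins2 with 0.11 and Fen1 with 0.090 were highest. Ccne2 and Tk1 were below 0 in this split and in that by CD274, which share cells and tags.

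The other antibodies gave ratios between -0.0056 and 0.045. CD106 (VCAM-1) gave 0.034 (0.0071 to 0.060) in 920 cells with a tag. In cells with at least 50 tags its promoter ratio turned to -0.0068. Past the fold was 1 of 43 genes against 8.33%, Rfc2 with 0.39 (-0.13 to 0.87) at its less open start. Pole, Mcm3 and Tk1 followed with 0.21, 0.21 and 0.20, and Rfc3 with -0.24, Rfc1 with -0.23, Mcm2 with -0.18 and Tipin with -0.11 were lowest. CD201 (EPCR) gave 0.012 (-0.013 to 0.037), with 2 of 43 genes past the fold against 6.997% of all genes. Its lowest genes were Tyms with -0.55, Mcm10 with -0.21, Uhrf1 with -0.17 and Orc1 with -0.13, and its highest were Rfc2 with 0.32, Rrm2 with 0.17, Pole with 0.17 and Gins2 with 0.10. P2X7R gave -0.0056 (-0.030 to 0.019), with 0 of 43 past the fold against 6.94%, and its promoter ratio was 0.041 in cells with at least 50 tags. Its ends were Tyms with -0.26, Rfc5 with -0.15, Rfc2 with -0.14 and Chaf1a with -0.14, and Prim1 with 0.22, Fen1 with 0.11, Tk1 with 0.10 and Chaf1b with 0.095.

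MERTK gave 0.021 (-0.0030 to 0.044) at promoters and 0.030 (0.0099 to 0.050) over bodies, or 0.084 and 0.11 in cells with at least 50 tags. Intervals without 0 over bodies were found for 5 of 44 genes, against 7.01% of all genes. Past the fold at promoters was 1 of 43 against 6.51%, Tyms with 0.39 (-0.0012 to 0.79). Rfc2, Mcm5 and Mcm6 followed with 0.17, 0.14 and 0.14, and Pola1 with -0.23, Prim1 with -0.16, Rrm1 with -0.14 and Tipin with -0.14 were lowest. CD68 gave 0.045 (0.0025 to 0.088) in 281 cells with a tag, which turned to -0.0026 with centred log ratios, CD163 0.043 (-0.042 to 0.13) in 71, CD183 -0.0031 (-0.051 to 0.044) in 225 and CD206 0.011 (-0.069 to 0.088) in 82. Genes were not counted for these, since the smaller group had under 300 cells. Across the antibodies the genes at the ends were often those with the fewest fragments (Tyms, Rfc2, Tk1, Prim1), whose intervals were the widest.

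**Figure D3:**
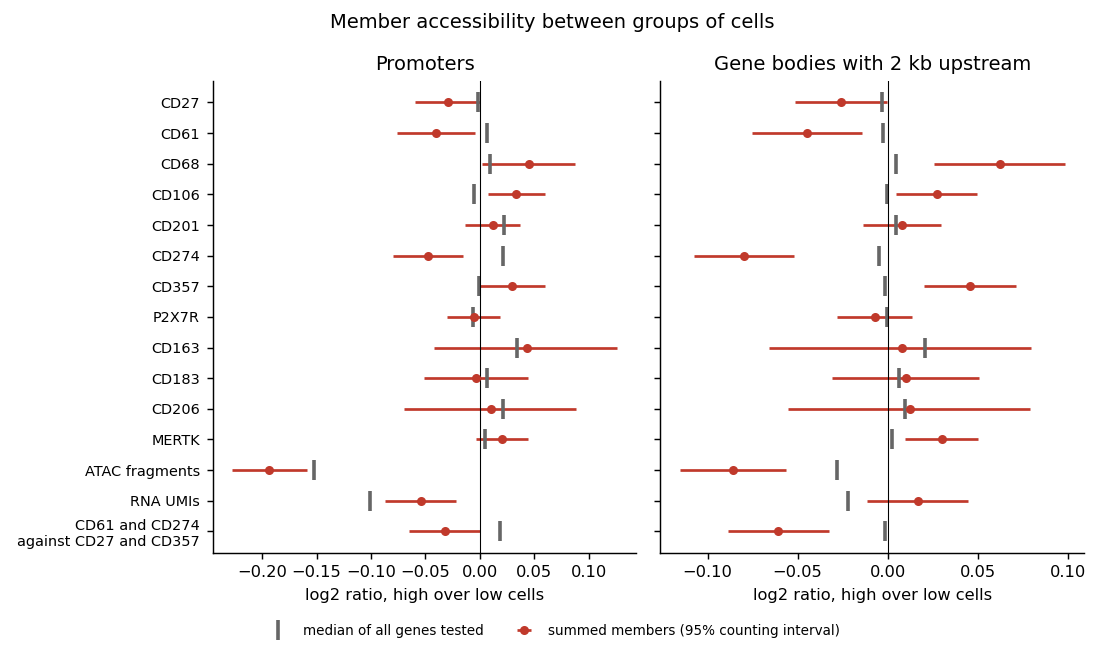
Log2 ratio of the summed replication genes (members), high over low cells, for each antibody, ATAC fragments, RNA UMIs and the joined markers. Promoters are on the left and gene bodies on the right, with 95% counting intervals. Grey bars are the median of all genes tested. Antibody ratios at promoters lie between -0.048 and 0.045, and those for ATAC fragments and RNA UMIs depend on the scaling, the RNA promoter ratio being 0.058 when scaled by promoter fragments.

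Cells with more ATAC fragments had a lower level of the replication promoters. From the lowest to the highest quartile of cells the level was 1669 (1637 to 1702), 1600 (1573 to 1627), 1500.2 (1476 to 1524) and 1459.7 (1440 to 1480) FPM. The log2 ratio of the 908 highest over the 907 lowest cells was -0.19 (-0.23 to -0.16), but the median of all genes was also -0.15. The share of fragments in promoters of protein-coding genes was 37.8% in the deep cells and 43.1% in the shallow ones, and scaled by promoter fragments the ratio was -0.0050. Past the fold were 14 of 41 genes (34.1%), against 33.2% of all genes. The replication genes thus followed promoters in general.

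Within the set, Mcm2 with -0.53 (-0.76 to -0.30), Mcm5 with -0.37, Gins2 with -0.36 and Pold1 with -0.35 were lowest. Tyms with 0.31 (-0.30 to 0.98), Mcm10 with 0.23 (-0.089 to 0.56), Tk1 with 0.18 and Ccne2 with 0.12 were highest. The genes of S phase entry had -0.041 (-0.16 to 0.074), and origin licensing genes had -0.24 (-0.31 to -0.17). Among the deep cells 30.0% had an excess of overlapping fragments and among the shallow ones 0%, and without such cells the promoter ratio was -0.22.

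**Figure D4:**
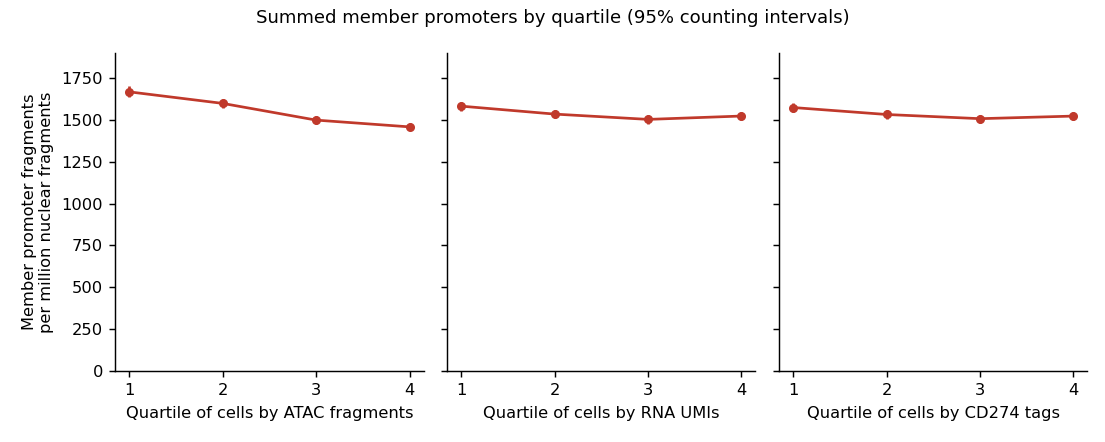
Summed promoter level of the 44 genes, in FPM, in quartiles of cells by ATAC fragments, RNA UMIs and CD274 tags, with 95% counting intervals. The level falls from 1669 to 1459.7 over the ATAC quartiles, as promoters of all genes do, and stays between 1504 and 1584 over the RNA quartiles.

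By RNA content the promoter ratio depended on the scaling. The 905 cells with the most UMIs had a median of 2811 and the 907 with the fewest a median of 1468, and their median ATAC fragments also differed, with 12123 against 9118. Scaled by nuclear fragments the ratio was -0.054 (-0.087 to -0.022), against an all-gene median of -0.10. Scaled by promoter fragments it turned to 0.058 (0.025 to 0.091). Cells ranked by UMIs within 10 bins of ATAC fragments, whose median ATAC fragments were 10305 and 10300, gave 0.044 (0.011 to 0.077). In this last split all promoters together had -0.034 (-0.036 to -0.032), further replication genes -0.0082 (-0.037 to 0.020), mitosis genes -0.010 (-0.049 to 0.028) and ribosomal protein genes -0.055 (-0.080 to -0.031). Quiescence and entry genes had 0.013 (-0.055 to 0.080). The share of fragments in promoters still differed, with 39.6% against 40.5%. An excess of overlapping fragments was judged against a single mean for all cells and not against each cell's own depth, so deep cells were flagged more often. Of the cells with the most UMIs 22.9% were flagged, against 1.65% of those with the fewest, and 10.8% and 6.05% in the split within ATAC bins. Without such cells, in an alternative chosen after seeing the data, the split within bins gave 0.010 (-0.025 to 0.046) for the replication promoters, an interval that includes 0, and -0.055 (-0.057 to -0.053) for all promoters together.

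Within the ATAC bins Mcm10 was highest with 0.58 (0.28 to 0.89) from 236 against 150 fragments, followed by Mcm6 with 0.51 (0.27 to 0.76) from 351 against 234. Ccne2 with 0.27 (0.066 to 0.48) and Rrm2 with 0.27 (0.046 to 0.50) came next. Of the other S phase entry genes, Ccne1 was at 0.14 (-0.027 to 0.32) and E2f1 at 0.12 (-0.072 to 0.31), and the S phase entry genes together had 0.17 (0.064 to 0.28), or 0.14 (0.030 to 0.26) without the cells with excess overlaps. Helicase activation genes had 0.087 (0.0078 to 0.17), or 0.026 (-0.060 to 0.11) without those cells, and the other role groups had intervals that include 0 and values from -0.016 to 0.087. Among genes with at least 100 fragments the lowest were Rrm1 with -0.22, Mcm2 with -0.21, Orc1 with -0.18 and Cdt1 with -0.10, all with intervals that include 0.

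The promoter ratios of the MCM subunits differed in direction by nuclear scaling. Intervals without 0 were found for 9 of 41 replication genes in this split, against 21.1% of all genes, a similar share. Mcm3 had 0.11, Mcm5 -0.015 and Mcm7 0.0095, and their intervals include 0 with each scaling. Scaled by nuclear fragments over all cells, Mcm6 had 36.6 FPM in cells with the most UMIs and 27.3 in those with the fewest, a log2 ratio of 0.42 (0.19 to 0.66). Mcm2 had 28.8 and 35.5, a ratio of -0.31 (-0.54 to -0.075), and Mcm4 had -0.23 (-0.40 to -0.064). Both intervals include 0 with the other scalings. Scaled by promoter fragments Mcm2 had -0.19 (-0.42 to 0.037) and Mcm4 had -0.12 (-0.29 to 0.048), and within the ATAC bins they had -0.21 (-0.44 to 0.023) and -0.089 (-0.26 to 0.084). By nuclear scaling, the only one for which genes past the fold were counted, 5 of 41 genes (12.2%) were past the fold, against 18.6% of all genes. Higher were 4 genes, Mcm10 with 0.44, Mcm6, Tk1 with 0.40 and Tyms with 0.34, against 5.37% of all genes, and lower was 1 gene, Mcm2, against 13.2%. The intervals of Tk1 (-0.030 to 0.86) and Tyms (-0.20 to 0.90) include 0, and within the ATAC bins these genes had 0.20 and 0.21. Gins2 with -0.23 and Tipin with -0.23 followed at the low end, and within the ATAC bins Gins2 had -0.018.

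Over bodies 7 of 44 genes were past the fold and higher in cells with more UMIs, against 8.99% of all genes, and 0 were lower, against 4.63%. Scaled by nuclear fragments over all cells the body ratio was 0.017 (-0.011 to 0.045), an interval that includes 0, and -0.00054 without cells with an excess of overlapping fragments. Within the ATAC bins the body ratio was 0.069 (0.041 to 0.097), and 0.037 (0.0067 to 0.067) without those cells. Beside it, quiescence and entry genes had 0.064 (0.022 to 0.11), further replication genes 0.019 (-0.0045 to 0.042), ribosomal protein genes -0.041 (-0.062 to -0.019) and all genes together -0.0072. Mitosis genes had 0.011 (-0.024 to 0.045). The 4 highest genes were Mcm6 with 0.56 (0.35 to 0.77), Mcm10 with 0.53 (0.25 to 0.81), Tyms with 0.37 (-0.11 to 0.87) and Tk1 with 0.28 (0.0028 to 0.56). Scaled by nuclear fragments over all cells, Tk1 and Tyms lay above Mcm10. Body and promoter windows share fragments and are not independent of each other. Lig1, whose open start lies within its body, had 0.25 (0.057 to 0.44) there.

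**Figure D5:**
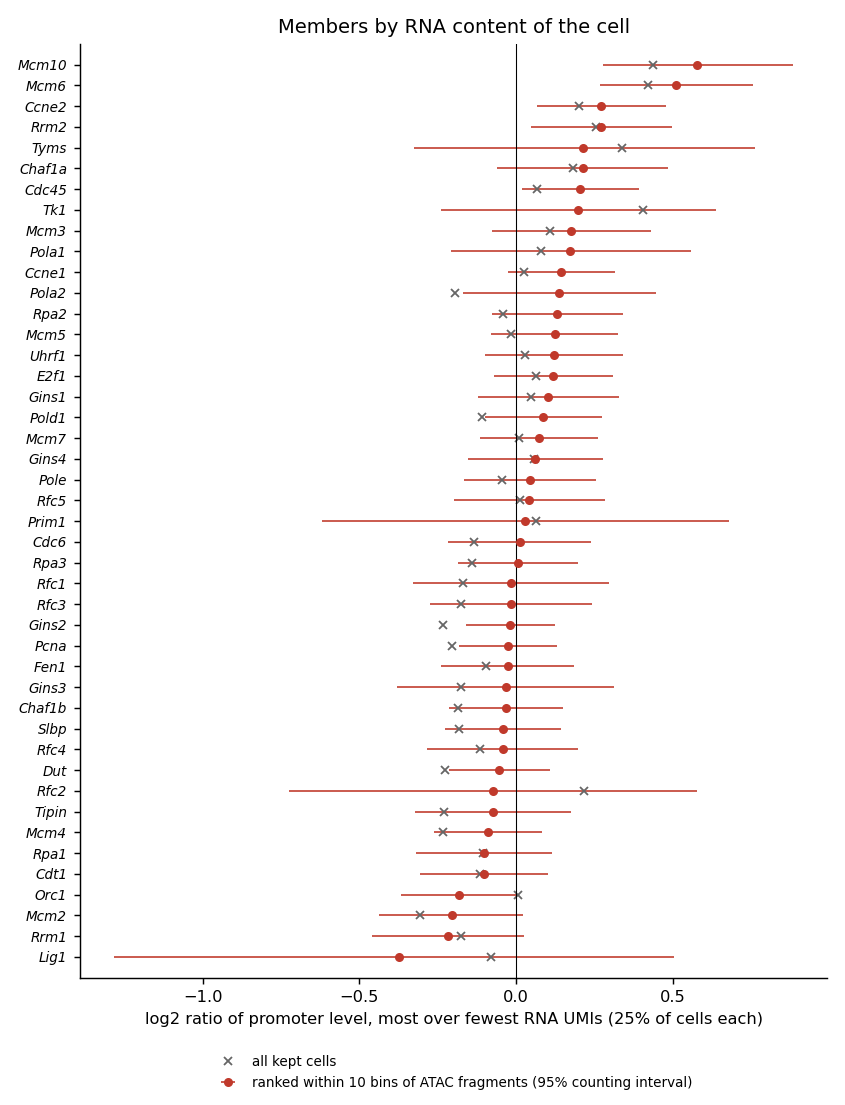
Log2 ratio of the promoter level of each replication gene (members) in cells with the most over the fewest RNA UMIs, ranked within 10 bins of ATAC fragments (red, with 95% counting intervals) or over all kept cells (grey crosses, scaled by nuclear fragments). Mcm10 and Mcm6 lie farthest to the right in both, and several genes such as Cdc6 and Pola2 change sign between them.

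The 10 genes with an E2F match had a median promoter level of 32.8 FPM, close to 34.4 in the 26 genes with a sequence and no match. Their median ratio by RNA UMIs within ATAC bins was 0.079, with 7 of 10 above 0, against 0.016 and 14 of 26 for the others. Mcm6, with its pair of matches in the stretch shown, had the second highest ratio, while Mcm10, the highest, had no match in its window. A match is a description of letters and not a bound site.

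Antibody tags and replication promoters were weakly related over single cells. Given nuclear fragments, Spearman partial correlations of the summed promoter fragments with the 12 antibody counts over 3629 cells lay between -0.012 for CD183 and 0.053 for CD106. For RNA UMIs it was 0.032, and 0.074 given promoter fragments as well. In counts this sparse such values are no finding. The 273 cells with an excess of overlapping fragments, which had a median of 17917 ATAC fragments against 10061, gave a promoter ratio of -0.024 (-0.059 to 0.010) against the other cells.

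The 57 further replication genes, which hold the other origin recognition subunits, checkpoint factors and E2F family members, were as open as the 44. Of these 57, 56 lay above the all-gene median. Lin52 of the DREAM complex had 77.3 FPM and the activator E2f3 had 70.0. Atad5 and Dscc1, which unload and load the clamp, had 11.4 each, and the polymerase epsilon subunit gene Pole4 had 1.06 at its gene start and 56.0 at another annotated start.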

How the data were processed

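Fragments, cell calls and antibody tags were measured in the 3 libraries of the aged pool. The authors deposited counts, namely ATAC fragments, per-barcode totals of fragments and UMIs, and antibody tags. The submitters' processing notes name Cell Ranger ARC 2.0.2 and mm10, and antibody tags were counted by CITE-seq-Count, version not given in the sources used here. Counts per gene of RNA and cells of young mice were not analysed here. Fragments overlapping promoters or gene bodies of GENCODE M21 were counted in Python 3.11.15 with numpy 2.4.6, scipy 1.17.1 and pandas 2.3.3. Levels have exact Poisson intervals, and ratios, with 0.5 added to each count, have exact conditional binomial intervals. Doublets were not filtered, but barcodes with more autosomal sites under 3 or more fragments than a Poisson count allows were left out in an alternative. The Poisson mean was that of all kept cells, without regard to a cell's depth, so this alternative mainly left out deep cells. RNA UMIs were also ranked within 10 bins of ATAC fragments, and antibody ratios were pooled over these bins by the Mantel-Haenszel method. The ratio code was tested on simulated data. The genes and lists were chosen with earlier results of these data known. In each comparison with at least 300 cells in the smaller group, the 4 highest and 4 lowest genes with at least 100 promoter fragments are named, and of other lists the 3 highest and 3 lowest promoters. Some genes of the other lists are not reported here. Alternatives covered the window, the start, insertions, the scaling, the cells kept, the cut of the groups, centred log ratios and thinning. The joined markers and the RNA split within bins without overlap-excess cells were added after the data were seen.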

Additional observations from a re-analysis of the deposited data

How the results depend on the processing

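Over the alternatives, 213 values stayed within the counting interval of the value reported, 25 moved beyond it and 11 turned the direction of a value whose interval excluded 0. The summed promoter level, 1535 FPM, was 1367 with 500 bp on each side of the start, 1616 at the most open annotated starts and 2989 with insertions counted in place of fragments. Keeping only the 363 cells with at least 50 tags, the promoter ratio had the other sign for CD27 (0.042), CD106 (-0.0068), CD274 (0.072), CD183 (0.024), CD206 (-0.41) and P2X7R (0.041), and moved for CD357 (0.068), MERTK (0.084) and ATAC fragments (-0.13). In the same cells the body ratio was 0.028 for CD27, 0.033 for CD61, -0.019 for CD106, 0.054 for CD274, 0.099 for CD357, 0.049 for P2X7R, -0.14 for CD163, 0.067 for CD183, -0.34 for CD206, 0.11 for MERTK, -0.053 for ATAC fragments and -0.028 for the joined markers. No intervals were computed for these values, which rest on parts of the 363 cells, and the cause was not tested. With centred log ratios of the tags, CD68 gave -0.0026 at promoters and 0.010 over bodies. Scaled by promoter fragments, ATAC fragments gave -0.0050 and RNA UMIs 0.058 at promoters. Over bodies CD201 gave -0.015 against 0.0079 with nuclear fragments as the scale, ATAC fragments 0.10 against -0.086, and RNA UMIs 0.13 against 0.017. Bodies of all protein-coding genes together also rose by RNA UMIs, to 0.082 against -0.030. By ATAC fragments the share of fragments in promoters was 37.8% in deep and 43.1% in shallow cells, which shifts this scale for every gene. Ranking RNA UMIs within bins of ATAC fragments gave 0.044 at promoters and 0.069 over bodies, and 0.010 and 0.037 when the cells with excess overlaps were also left out. The spread over cells, 1.33, was 2.61 with insertions, 1.23 with at least 50 tags and 1.10 in thinned cells. Insertions count both ends of a fragment and thinning lowers the mean count, so those values are not on the scale of 1.33. No paired analysis was possible because there was 1 pool and no comparison of groups of samples. Counting intervals cover neither animals nor libraries, and ratios of single genes with few fragments (Tyms, Rfc2, Prim1, Lig1) are limited by depth.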

Other observations

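Mitosis genes, which act after replication, were open in all 33 cases above the all-gene median of 9.92 FPM. Tacc3 had 67.9, Ect2 55.7 and Mad2l1 51.5, and Bub1b with 11.4, Plk1 with 14.7 and Ccnb2 with 15.6 were lowest. Of the 10 quiescence and entry genes, the inhibitor gene Cdkn2d had 82.5, Cdk4 69.0 and Ccnd2 66.9. Cdkn1a had 0.883 at its gene start and 23.7 at another annotated start, Ccnd3 had 7.53 and 45.5, and Ccnd1 had 16.7. Of the 79 ribosomal protein genes, Rps19 had 76.7, and Rpl13a and Rps29 had 63.9 each. Rpl10l and Rpl39l had 0.052 each and Rpl3l had 1.38.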
